A study of Mus musculus with 13 samples.

Results

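The AP-1 and Egr immediate early factors are 10 transcription factor genes, Fos, Fosb, Fosl2, Jun, Junb, Jund, Atf3, Egr1, Myc and Maff. They were found as the rows of the liver table whose gene symbol equals a member's name, and 9 of the 10 were among its 11779 listed genes. Fosb was not among them, and its level was not analysed here. The levels of all listed genes ran from 15.6 to 1217470, so a gene that was not listed has no value here rather than a level of 0.

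The study lowered LL35, a mouse liver long non-coding RNA also known as Falcor, with antisense oligonucleotides (ASOs), short modified DNA strands that direct cleavage of a matching RNA. The 6 liver libraries came from Balb/c mice 5 days after injection, 3 from mice given, per the labels, a mix of 5 LL35 ASOs and 3 from controls given an ASO against firefly luciferase (Luc ASO). In both groups the ASOs carried GalNAc, a sugar taken up by a receptor of hepatocytes. For the LL35 ASOs the labels state 150 mg/kg for each oligonucleotide, whereas the study's methods give the same figure as a total. The study's list of ASOs for animals is shorter than the mix in the labels, although its results section also speaks of 5 conjugates. Another 7 libraries, from the mouse hepatocyte line AML12 treated with Luc ASO or with the LL35 ASOs at 20 nM each for 2 days, were not analysed here. The liver values used are 1 mean per gene, averaged by the authors over both ASO groups after normalisation for library size. They hold no values for single mice, so no error between mice can be given, the depth of each library is unknown, and the LL35 ASO livers were not compared with the Luc ASO livers. No listed gene bore the NCBI symbol that the study gives for LL35, and other names of that gene were not looked up. Each value below is therefore a level of the gene over both groups, described without a test.

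Immediate early genes are transcribed within minutes of a stimulus because the factors that switch them on are already present in the resting cell, and their RNAs and proteins are short-lived. AP-1 is a dimer of leucine zipper proteins. Jun proteins can pair with each other or with Fos proteins, whereas Fos proteins need a Jun partner. In the liver these genes are well known for a fast, transient rise after partial hepatectomy and during injury, inflammation and handling of the tissue. Such conditions were not measured here.

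Egr1 had the highest level of the 9 listed members on the scale of mean normalised counts per kilobase of exon, and Fosl2 had the lowest. The 3 Jun class genes came next, in the order Jund, Jun and Junb, followed by Maff, Fos, Myc and Atf3. On this scale 7 of the 9 lay above the median of 51.5 over 11754 listed genes with an exon length, and the members' own median was 126.5. Before division by length, 6 of the 9 lay above the median mean normalised count of 234.7. The highest member exceeded the lowest by 20.4-fold per kilobase, by 34.3-fold in mean normalised count and by 11.8-fold per kilobase of coding sequence. Since no error between mice can be given, whether neighbours in the order differ beyond their spread cannot be said. The ratio of neighbours per kilobase was smallest between Jund and Jun (1.01) and largest between Junb and Maff (2.03).

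**Figure D1:**
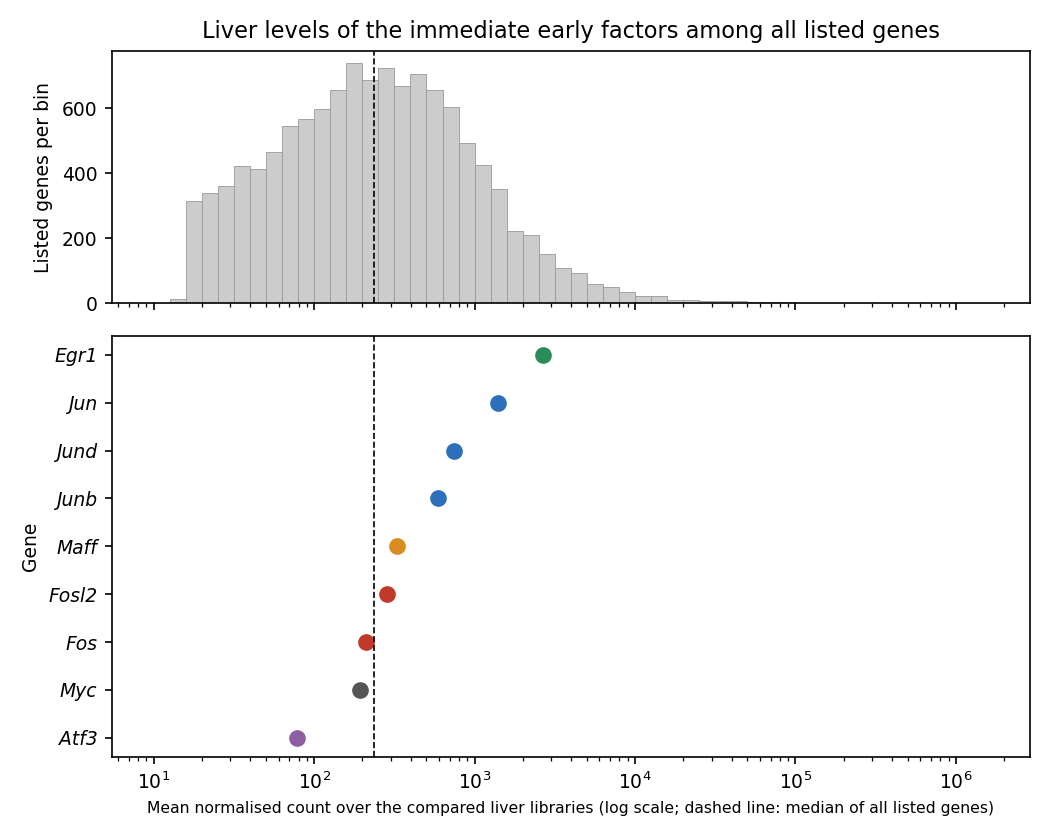
Mean normalised count of each listed member over the liver libraries of both ASO groups (lower panel, log scale, 1 point per gene, coloured by class) below the distribution over all 11779 listed genes (upper panel, genes per bin). The dashed line is the median of all listed genes, 234.7, with Egr1, the 3 Jun class genes, Maff and Fosl2 to its right and Fos, Myc and Atf3 to its left.

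Among the Fos class genes, Fos encodes the founding Fos protein, which binds DNA only as a dimer with a partner such as Jun. Fos (ENSMUSG00000021250) had a mean normalised count of 211.5 and a level of 89.9 per kilobase, higher than 66.4% of listed genes on the per-kilobase scale. Its count before division by length was 0.901 times the median of all listed genes. Fos was thus below the median by count and above it per kilobase, as its 2352 bases of merged exons are fewer than the median of 4520. Fosl2 encodes Fra-2, a Fos protein without the strong activation domain of Fos. Fosl2 (ENSMUSG00000029135) had a mean normalised count of 283.5 and a level of 29.3 per kilobase, the reverse order of the same 2 genes. With 9680 bases of exon against 981 bases of coding sequence, it was the member whose place depended most on the measure of length. Its level was 289.0 per kilobase of coding sequence, above the 185.0 of Fos on that scale.

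A stretch around the CRE form near the gene start and an AU-rich element of the 3′ untranslated region (UTR) are printed here for the Fos class genes that hold them. The promoter stretches show the cyclic AMP response element (CRE), the site of CREB and ATF proteins, or its shorter or variant forms, so that the matches can be compared between members. Such a form is present in 24.0% of all promoter windows. The shorter and variant forms were added to the search after the windows had been seen. The 3′ UTR stretches show the AU-rich nonamer in the form TTATTTATT, a sequence known to destabilise the messenger RNAs of short-lived regulators. Other forms of the nonamer were not searched. Capitals mark the match, and every sequence is written 5′ to 3′ on the strand of the gene. The CRE is TGACGTCA, the half-site TGACG and the variant TGACATCA. Promoter stretches are from RefSeq on GRCm38.p6 and 3′ UTR stretches from GENCODE M21.
Fos promoter, CRE half-site, chr12:85473809-85473843, plus strand: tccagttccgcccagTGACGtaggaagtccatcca
Fosb promoter, CRE half-site, chr7:19310086-19310120, minus strand: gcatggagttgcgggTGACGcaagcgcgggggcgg
Fos 3′ UTR, AU-rich nonamer: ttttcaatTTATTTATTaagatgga
Fosl2 3′ UTR, AU-rich nonamer: ttattttaTTATTTATTttaaatgt

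In Fos the half-site began 66 bases before the gene start and lay between a GC box that ended 69 bases before the start and a TATA box that began 33 bases before it. A second half-site of Fos began 129 bases before the start. The Fosb half-site began 60 bases before the start, and the same printed stretch runs into an Egr site whose first base lies 50 bases before it. The Fos nonamer began at base 655 of a 3′ UTR of 815 bases, and that of Fosl2 at base 3692 of 4653. The Fosl2 window held no CRE form, but it held an Egr site 79 bases before the start that overlaps a GC box. That window was placed at a RefSeq start 671 bases downstream of the GENCODE gene start, so it does not cover the latter.

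Per kilobase of merged exons the Jun class genes were the highest of the AP-1 members, although Maff stood above Junb per kilobase of coding sequence. Jun encodes c-Jun, the main partner of Fos and the target of the JNK kinases. Jun (ENSMUSG00000052684) had a mean normalised count of 1408 and a level of 441.6 per kilobase, above 92.4% of listed genes per kilobase. Jund encodes the Jun protein that is most evenly present in resting cells. Jund (ENSMUSG00000071076) had a mean normalised count of 742.1 and a level of 444.9 per kilobase, so the count of Jun was the higher while the levels per kilobase were nearly equal. On the coding length scale Jun stood at 1401 and Jund at 723.3, which turned their order. Junb encodes a Jun protein that activates weakly and can oppose c-Jun. Junb (ENSMUSG00000052837) had a mean normalised count of 591.0 and a level of 256.9 per kilobase, the lowest of the class by either value.

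Summed per kilobase, the 3 Jun class genes reached 1143 and the 2 listed Fos class genes 119.2, a ratio of 9.59. Jun alone exceeded Fos by 4.91-fold per kilobase and by 7.57-fold per kilobase of coding sequence. The class ratio was 5.69 per kilobase of coding sequence, with sums of 2696 and 474.1, so its direction was the same but its size depended on the length used. The Fos sum lacks Fosb.

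The promoter stretches of Jun and Junb are shown for the same reason as those of the Fos class, with the match in capitals. Jun carries the variant form, which is known as a site of Jun and ATF-2 dimers in its promoter.
Jun promoter, variant CRE, chr4:95052245-95052282, minus strand: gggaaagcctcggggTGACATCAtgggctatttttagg
Junb promoter, CRE half-site, chr8:84978835-84978869, minus strand: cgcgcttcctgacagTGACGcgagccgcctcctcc

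The match of Jun began 45 bases before the gene start. That of Junb began 106 bases before its RefSeq start, which lies 30 bases upstream of the GENCODE start. The window of Jund held none of the motifs searched. That window was placed at a RefSeq start 1210 bases upstream of the GENCODE start, so it does not cover the start used for the Jund exon length. The annotation on which the authors counted may hold another exon length for Jund. Its level per kilobase and its place beside Jun depend on that length, which was not tested.

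The 3 Jun class genes each share exon bases with a gene on the opposite strand. Jun shares 232 bases with Junos, Jund shares 877 bases with Gm11175, and Junb shares 173 bases with Prdx2, a peroxiredoxin gene. Of these 3 neighbours only Prdx2 was listed. The libraries were made with a kit that keeps strand information, but whether counting used it is not given in the sources used here. In the shared bases, reads of these genes and of their neighbours may therefore not be assigned to the right gene. For Jund these are 877 of 1668 exon bases, and the effect on its level was not tested. The other 6 listed members shared no exon base with another gene in GENCODE M21.

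Atf3, a stress-induced factor of the CREB and ATF group that pairs with Jun proteins and often represses, was listed at a low level. Atf3 (ENSMUSG00000026628) had the lowest mean normalised count of the 9, 78.1, which was 0.333 times the median of all listed genes. Its level of 36.3 per kilobase lay above 39.5% of listed genes and was 1.24 times that of Fosl2. Per kilobase of the transcript with the longest coding sequence the order of the 2 turned, with 39.4 for Atf3 and 43.4 for Fosl2, as it did per kilobase of coding sequence, with 143.1 and 289.0. Maff encodes a small Maf protein, which has a leucine zipper but no activation domain and acts through larger partners. Maff (ENSMUSG00000042622) had a mean normalised count of 328.1 and a level of 126.5 per kilobase, the middle value of the 9. Its coding sequence of 471 bases was the shortest of the members, and its level per kilobase of coding sequence, 696.7, placed it above Junb, at 571.0 on that scale.

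Maff had the only complete CRE of the 8 members with a promoter window. Atf3 had a half-site on the strand opposite to the gene, so it is printed as the reverse complement of the form shown for Fos. The Maff 3′ UTR held 2 AU-rich nonamers, more than any other member, and both are printed.
Maff promoter, CRE, chr15:79347476-79347513, plus strand: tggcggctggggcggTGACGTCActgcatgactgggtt
Atf3 promoter, CRE half-site, chr1:191183321-191183355, minus strand: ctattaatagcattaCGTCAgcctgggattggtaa
Maff 3′ UTR, first AU-rich nonamer: ccacactcTTATTTATTgcacgaat
Maff 3′ UTR, second AU-rich nonamer: cccagagtTTATTTATTttctgact

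The Maff CRE began 29 bases before the second of its 3 RefSeq starts, which lies 899 bases downstream of the GENCODE gene start, and a GC box adjoined it on the upstream side. The third Maff window held a variant CRE 45 bases before its start and a half-site, and the first held none of the motifs. The Atf3 half-site was centred 5 bases before a RefSeq start that lies 34706 bases inside the GENCODE gene, so the window describes an internal start. The Maff nonamers began at bases 933 and 1132 of 1221.

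Egr1 encodes a zinc finger factor that binds GC-rich sites, and its activity is restrained by the NAB corepressors, whose genes it can induce. Egr1 (ENSMUSG00000038418) had a mean normalised count of 2679 and a level of 597.5 per kilobase, above 94.2% of listed genes per kilobase. Its level was 11.6 times the median per kilobase, and it ranked first of the 9 by count and under all 3 measures of length. Myc encodes the growth-promoting factor that binds E-box sites as a dimer with Max. Myc (ENSMUSG00000022346) had a mean normalised count of 192.9 and a level of 71.0 per kilobase, above 59.2% of listed genes per kilobase. Like Fos, it was below the median by count and above it per kilobase.

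**Figure D2:**
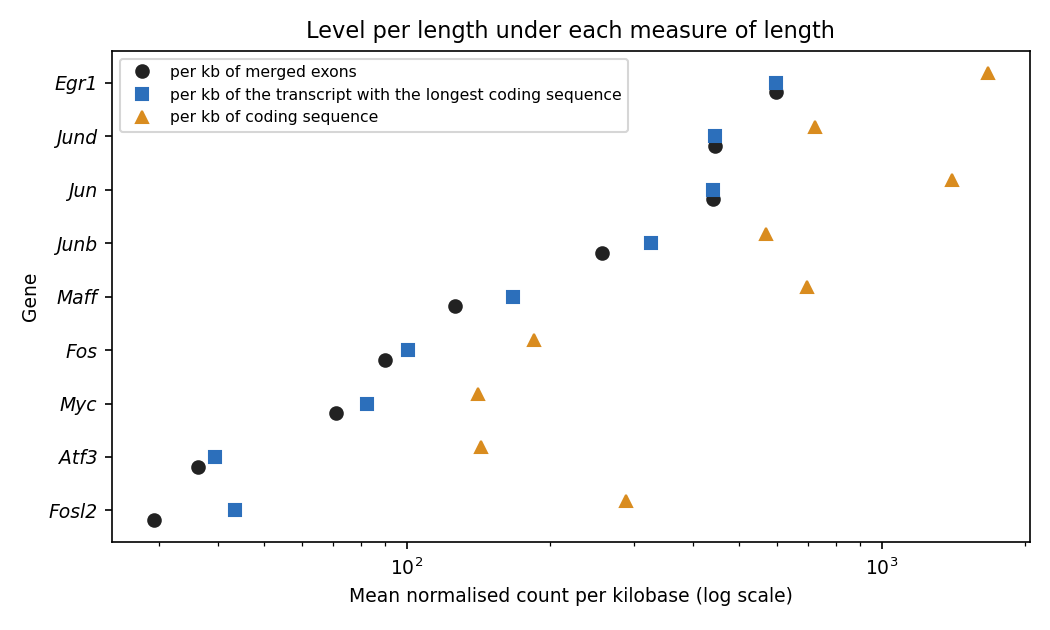
Level of each listed member per kilobase of merged exons (black circles), per kilobase of the transcript with the longest coding sequence (blue squares) and per kilobase of coding sequence (orange triangles), on a log scale, in the order of the merged exon values. Egr1 was highest on all 3 scales, and Fosl2 moved most, from 29.3 per kilobase of merged exons to 289.0 per kilobase of coding sequence.

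Related genes were described from 7 lists of partners, relatives and upstream regulators, of whose 62 genes 51 were listed. No count of genes that rose or fell can be given for them, as only their level over both ASO groups was used. Of the other AP-1 family leucine zipper genes, 7 of 12 were listed, with a median of 73.2 per kilobase. Jdp2, a repressor related to Atf3, was the lowest of these at 22.2 per kilobase. Fosl1, the gene of the fourth Fos protein, was not among the listed genes, nor were Batf, Batf2, Batf3 and Mafa. Atf2, a Jun partner already present in resting cells, stood at 73.2 per kilobase, 0.166 times the level of Jun, or 0.292 times per kilobase of coding sequence.

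Small Maf proteins pair with the stress factor NRF2, encoded by Nfe2l2, and with the haem-regulated repressor BACH1. Among the small Maf genes, Mafg stood at 224.1 per kilobase, 1.77 times the level of Maff, and Mafk at 40.0, 0.316 times that level. Maff thus lay between the other 2 small Maf genes, and it did so per kilobase of coding sequence too, where the ratios were 3.69 and 0.476. Nfe2l2 and Bach1 stood at 228.6 and 232.9 per kilobase, 1.81 and 1.84 times the level of Maff. Per kilobase of coding sequence these ratios were 0.694 and 0.930, so which of the genes was higher depended on the length used. Of the 5 partner genes 4 were listed, with Nfe2l1 highest at 333.6 per kilobase and Bach2 lowest at 23.1.

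Of the Egr family only Egr1 was listed, and Egr2, Egr3 and Egr4 were not among the listed genes. Both NAB corepressor genes were listed, Nab1 at 215.0 and Nab2 at 56.9 per kilobase. Egr1 exceeded Nab1 by 2.78-fold and Nab2 by 10.5-fold per kilobase, and by 2.77-fold and 15.8-fold per kilobase of coding sequence.

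In the Myc network 11 of 12 genes were listed, with a median of 47.2 per kilobase. Max, the obligate partner of Myc, stood at 98.6 per kilobase, 1.39 times the level of Myc, or 5.20 times per kilobase of coding sequence. Mlxipl, which encodes the glucose-responsive factor ChREBP, was the highest at 379.8 per kilobase, 5.35 times the level of Myc. Mycn, a relative of Myc used mainly in development, was the lowest at 11.8 per kilobase, and Myc exceeded it by 6.03-fold.

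Many immediate early promoters are switched on by SRF with its ternary complex partners and by CREB, which MAP kinase cascades activate and MAP kinase phosphatases turn off again. All 10 genes of the SRF, ternary complex and CREB/ATF list were present, with a median of 45.2 per kilobase, from 249.9 for Elk4 to 18.4 for Elk1. Srf stood at 52.3 and Creb1 at 37.5 per kilobase, and Egr1, a classical SRF target, exceeded Srf by 11.4-fold. All 10 MAP kinase genes were present too, with a median of 120.5 per kilobase, from 293.2 for Mapk14, which encodes p38α, to 37.8 for Mapk8, which encodes JNK1. Of the phosphatase genes 7 of 8 were listed, with a median of 19.6 per kilobase. Dusp6, Dusp16 and Dusp1 stood between 148.8 and 304.4 per kilobase and the other 4 between 9.89 and 19.6. Dusp1 and Dusp6 are themselves well known as genes induced together with the immediate early factors.

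The tissue label was checked against marker genes. All 8 hepatocyte markers were listed, with mean normalised counts from 10070 for Serpina1a to 1217470 for Alb, and Hnf4a, the hepatocyte nuclear receptor, exceeded Egr1 by 4.27-fold per kilobase. All 8 Kupffer cell and macrophage markers (120.3 to 1954), all 6 endothelial markers (120.9 to 2171) and all 6 stellate cell markers (51.8 to 1823) were listed as well, with 1 of 4 cholangiocyte, 1 of 6 T, NK and B cell and 3 of 4 neutrophil markers between 18.6 and 45.9. These are bulk liver RNAs, in which fewer cells of a type and less RNA per cell cannot be told apart, and each member is also known in several of these cell types. Their part in the members' levels was not tested.

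**Figure D3:**
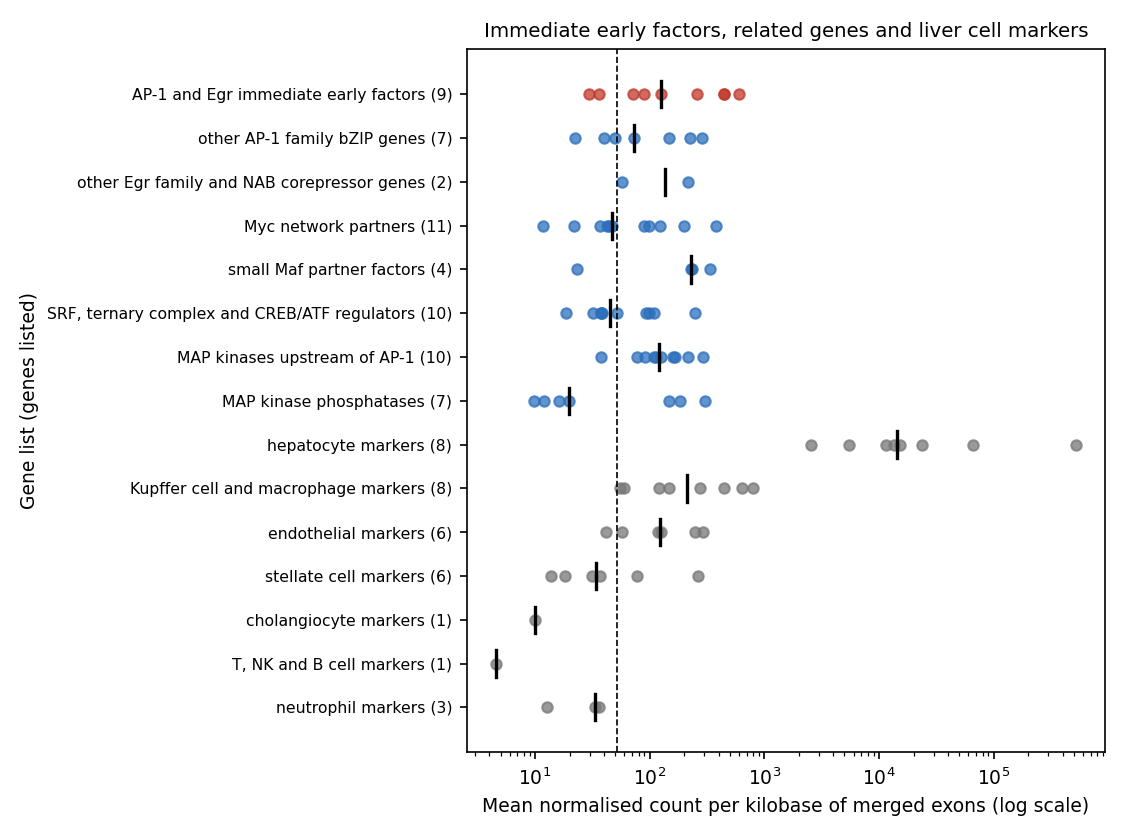
Mean normalised count per kilobase of merged exons (log scale) of the 9 listed members (red), of related genes in 7 lists (blue) and of liver cell markers (grey), 1 point per gene, with the number of genes listed in brackets and a black bar at each list's median. The dashed line is the median of all listed genes, 51.5. The members' median of 126.5 lay near those of the MAP kinase genes (120.5) and the endothelial markers (122.7), and the hepatocyte markers lay above all members.

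All 9 members have few exons, a feature that the choice by name did not use. In GENCODE M21 their transcripts with the longest coding sequence had a median of 3 exons, against 9 over 11396 listed protein-coding genes. Jun, Junb and Jund had 1 exon each, as had 1.79% of listed protein-coding genes, and all 9 had at most 4 exons, as had 18.3%. The Jun class genes are related to each other, as are Fos and Fosl2, so the members are not independent cases. The median span from gene start to end was 4984 bases for the members and 25224 bases for all listed protein-coding genes. The span was not short in every member, as that of Atf3 was 47744 bases, and Fosl2, with a span of 22042 bases, had 9680 bases of exon against a median of 4597 over listed protein-coding genes.

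The promoter windows of 8 members, from 250 bases before to 50 bases after each RefSeq gene start, were searched on both strands for exact matches, and Egr1 and Myc have no window. A complete CRE (TGACGTCA) was found in 1 of 8 members, Maff, and in 1.79% of all 32851 windows. The half-site TGACG, which is contained in the CRE on both strands, was found in 5 of 8 members (Fos, Fosb, Junb, Atf3 and Maff) and in 20.8% of all windows. The variant CRE TGACATCA was found in Jun and Maff and in 3.62% of all windows. The half-site and the variant were added to the search after the windows had been seen. Any of these forms was present in 6 of the 8 members, against 24.0% of all windows and 26.6% of the 27025 genes with a window. Of the 7 members with a single window it was present in 5.

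The GC box (GGGCGG), the site of Sp1, was found in 6 of 8 members, all but Junb and Jund, and in 35.7% of all windows. The Egr site (GCGGGGGCG), which can overlap a GC box and did so in both cases, was found in Fosb and Fosl2 and in 2.91% of all windows. A TATA box (TATAAA) was found in Fos and Junb and in 13.6% of windows. That of Junb began on the RefSeq start itself, which lies 30 bases upstream of the GENCODE start. The E-box (CACGTG) of Myc and Max was found in Maff and in 7.15% of windows. Neither the AP-1 site (TGAGTCA) nor the CArG box, the site of SRF, was found in the 8 members, against 5.20% and 1.63% of windows. These counts concern only these letters in these windows. Members of 1 gene family can share ancestral sequence, and Maff, with 3 windows, had more chances of a match than the others.

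**Figure D4:**
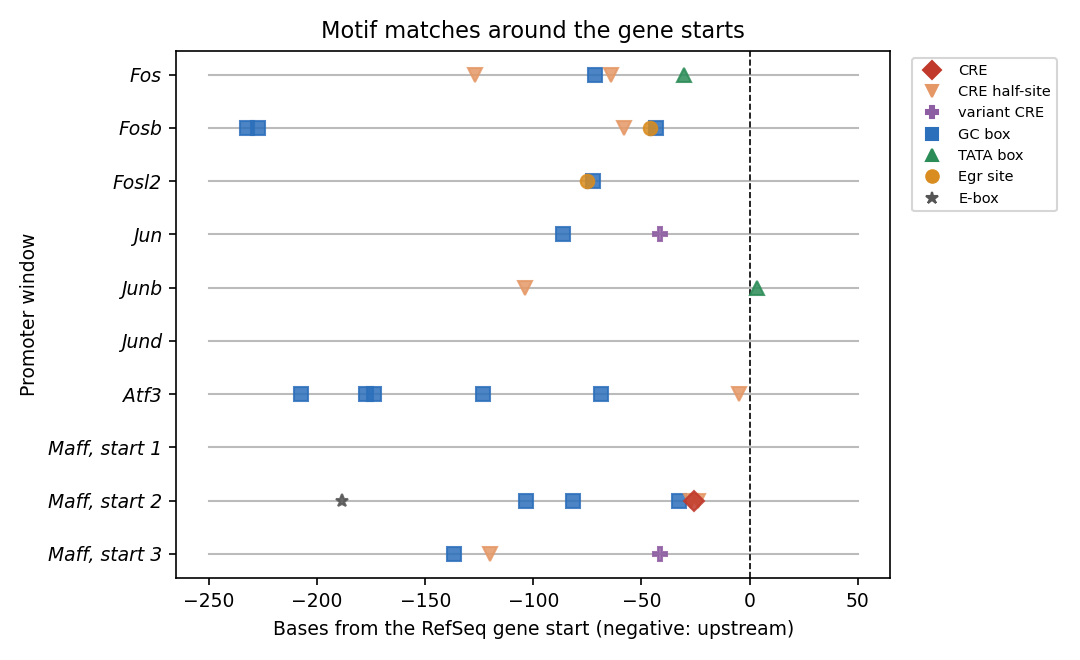
Positions of motif matches in each promoter window, in bases from the RefSeq gene start (dashed line, negative values upstream), with 1 row per window and 1 symbol per match on either strand. CRE forms lay between 129 bases upstream and the start in 6 of the 8 members. Such forms are held by 24.0% of all windows and by 26.6% of genes with a window. Of these forms, the half-site and the variant were added after the windows had been seen. The rows of Jund and of the first Maff start hold no match.

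AU-rich elements of the 3′ UTR were counted in the transcript with the longest coding sequence of each gene, and were chosen for description after the data had been seen. The pentamer ATTTA, the core of these elements, was present in 9 of 9 members and in 66.5% of 11204 listed protein-coding genes with a 3′ UTR. Its density had a median of 3.24 per kilobase of 3′ UTR in the members and of 1.25 in all these genes, and each of the 9 lay above the latter. Fos was the densest with 4.91 per kilobase, followed by Myc with 4.52 and Junb with 4.12, and Egr1 was the lowest with 1.64. The longer nonamer TTATTTATT, of which the pentamer is a part, was present in Fos, Fosl2 and Maff, 3 of 9 members, and in 7.05% of all these genes. The median 3′ UTR length was 1186 bases in the members and 993 bases in all these genes, and a longer 3′ UTR has more places for a match. The 2 lowest densities belonged to Egr1 and Fosl2, the members with the highest and the lowest level per kilobase of exon, 597.5 and 29.3.

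**Figure D5:**
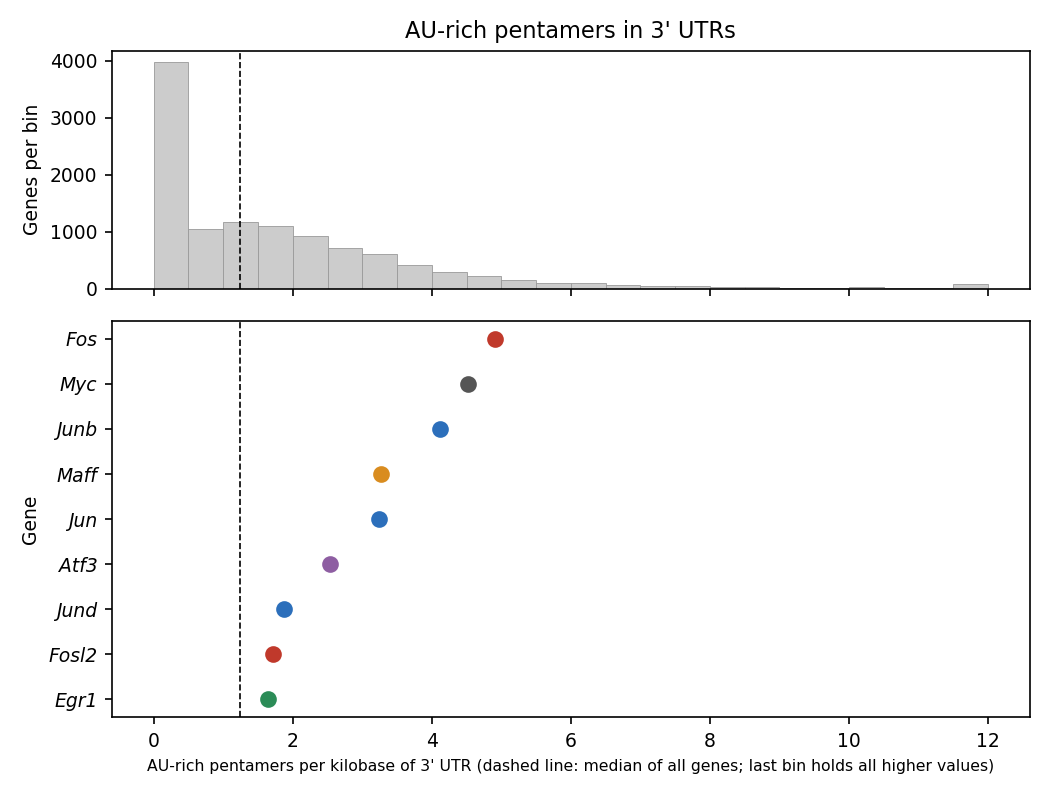
Number of AU-rich pentamers per kilobase of 3′ UTR for each listed member (lower panel, coloured by class) below the distribution over 11204 listed protein-coding genes (upper panel, genes per bin of 0.5, with all higher values in the last bin). The dashed line is the median of all these genes, 1.25, and all 9 members lie to its right, from 1.64 in Egr1 to 4.91 in Fos.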

How the data were processed

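RNA of 6 mouse livers was sequenced by the authors, after rRNA depletion, from libraries made with a directional kit. According to the study's methods and the submitters' processing notes, the authors aligned reads with STAR 2.5.3a, which also counted them on Ensembl genes, and compared groups with DESeq2 after RLE normalisation. The genome build, the annotation release and the strand setting are not given in the sources used here. The authors' deposited table gives for each of 11779 genes the mean normalised count, a signal averaged over the compared libraries of both ASO groups, which was the only measured value used. The other 5 numeric columns hold the authors' own comparison (fold change, its standard error, test statistic, p-value and adjusted p-value) and were not used. No column holds values of single mice, so depth and its precision are unknown, and no test between groups was run. The 7 AML12 libraries were not analysed here.

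Genes were matched by Ensembl identifier to GENCODE M21. Levels were divided by the length of merged exons in units of 1000 bases, and percentiles were taken over all listed genes. All 10 members were named, with the highest and lowest gene of each list per kilobase and the usual partners and corepressors of the members. The value of 1 gene that this rule names is not reported here. The members and lists were chosen with earlier results of these data known. Motifs were searched in RefSeq promoter windows of GRCm38.p6. Alternatives were coding or transcript length, no division by length, protein-coding genes or genes at 50 or more as background, exact symbols, and windows from 150 bases before the start. Scripts ran under Python 3.11.15 with pandas 2.3.3, numpy 2.4.6 and matplotlib 3.10.9, and were tested on simulated data.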

Additional observations from a re-analysis of the deposited data

How the results depend on the processing

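The order of the members depended on the length used. Of 9 members, 2 kept their place per kilobase of coding sequence, 3 kept it without division by length, and 7 kept it with the transcript length, an alternative chosen after seeing the data. Egr1 was first in each. The number of members above the median, 6 as reported, was 6 among protein-coding genes, 5 among genes at 50 or more and 7 per kilobase. Of 27 recomputed percentiles, 24 stayed within 1.5 times the reported value. The other 3 were Atf3, from 24.0 to 9.73 among genes at 50 or more and 39.5 per kilobase, and Fosl2, from 55.1 to 33.7 per kilobase. A CRE was found in 1 member in both windows, and in 6 when the half-site and the variant were counted too, which was chosen after seeing the data. The E-box of Maff lies outside the shorter window. The nonamer was found in 3 members also over all coding transcripts, and exact symbols gave the same 51 related genes. No paired analysis was possible because the table holds no values of single libraries, and for the same reason no replicate could be left out. The planned search of protein features was not run. Depth limits every value to an unknown degree, since neither counts nor library totals were used.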
